A study of Homo sapiens with 8 samples.

Results

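The genes described here encode heat-shock proteins of the cytosol and the mitochondrial matrix. They are HSPA8, HSPA1A, HSPA1B, HSPH1, DNAJB1, BAG3, HSP90AA1, HSP90AB1, HSPD1 and HSPE1. They were chosen by symbol, with earlier results of these data known, and make up 10 of the 60664 genes in the deposited count tables. Every one had reads in all 8 libraries and passed the filter on low counts at both sites.

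The libraries come from HEK293T, a transformed human embryonic kidney cell line, made to express APEX2, an engineered peroxidase that tags RNA close to it with biotin. The groups were 2 labelled libraries with APEX2 in the nucleus (NLS), 2 unlabelled NLS controls, 2 labelled libraries with APEX2 at the outer mitochondrial membrane (OMM), and 2 unlabelled OMM controls. The controls expressed APEX2 as well, per the labels, and they hold the RNA that came off the streptavidin beads without tagging, not the RNA of whole cells. Library kits differed. A SMARTer Stranded Total RNA kit made the NLS libraries, which are titled ribominus, whereas the OMM ones, titled trizol, came from a TruSeq Stranded mRNA kit, so site and kit cannot be told apart. The labels state neither whether the cells are a clone nor what drives the enzyme. They also leave unsaid if replicate libraries stem from different dishes of cells, and the p-values here reflect library-to-library spread that may be technical. Libraries are numbered as in the column names: 1 and 3 at NLS, labelled 2 and 3 and controls 3 and 4 at OMM. The sample titles number each group differently, so columns were tied to their group and not to single samples.

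Heat-shock proteins are chaperones: HSP70 proteins bind unfolded stretches of other proteins in a cycle of ATP use, J-domain proteins deliver clients and start ATP hydrolysis, and exchange factors reset the cycle by releasing ADP. HSP90 takes over many clients at a late stage of folding, and in mitochondria the HSP60 ring with its HSP10 lid folds imported proteins. HSF1, the main transcription factor of the response, binds repeats of the unit nGAAn in alternating orientation upstream of many of these genes. All 10 are made as ordinary nuclear-encoded mRNAs that are translated in the cytosol, including the 2 whose proteins work in the matrix.

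A sequence feature found upstream of some of these genes, which did not enter their choice, is shown first. In RefSeq promoter windows (GRCh38.p14, the 250 bases before each transcript start) the inverted pair of units, GAANNTTC or TTCNNGAA, each of which reads the same on both strands, was found for 7 of the 10 genes, in 7 of their 16 windows, against 11.6% of all 35116 windows. The overlapping triple, which holds both pairs, was found for 4 genes (HSP90AA1, HSP90AB1, HSPA8 and HSPD1). That was 4 of their 16 windows in all, against 0.441% of all windows. The 120 bases before the start are printed for members that stand for constitutive HSP70, inducible HSP70, J-domain and HSP90 proteins, 5′ to 3′ on the gene's strand, with the inverted pairs in capitals:
HSPA8 (chr11:123062137-123062256, minus strand): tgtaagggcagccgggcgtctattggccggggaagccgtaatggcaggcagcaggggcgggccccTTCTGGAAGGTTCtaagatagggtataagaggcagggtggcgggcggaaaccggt
HSPA1B (chr6:31827618-31827737, plus strand): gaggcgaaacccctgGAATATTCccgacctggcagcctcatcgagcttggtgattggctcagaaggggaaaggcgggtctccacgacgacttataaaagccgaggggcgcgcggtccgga
DNAJB1 (chr19:14518398-14518517, minus strand): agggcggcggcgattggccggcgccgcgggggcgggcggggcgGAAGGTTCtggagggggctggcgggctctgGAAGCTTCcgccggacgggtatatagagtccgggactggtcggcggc
HSP90AA1 (chr14:102087045-102087164, minus strand): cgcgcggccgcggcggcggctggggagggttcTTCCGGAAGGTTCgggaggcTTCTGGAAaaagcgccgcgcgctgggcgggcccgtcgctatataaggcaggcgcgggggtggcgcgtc
In HSPA8 and HSP90AA1 the 13 capital letters in a row are 2 pairs that overlap. A match describes these letters and says nothing of binding by HSF1, which was not measured.

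All 10 heat-shock mRNAs fell at the nuclear site. Their edgeR log2 fold changes of labelled over control ran from -2.07 to -1.35, with a median of -1.80, against a median of 0.14 over all 20858 tested genes and -0.26 over the 13856 tested protein-coding genes. The 10 of 10 called lower (adjusted p under 0.05) stand beside a background of 28.5% of all tested genes and 39.8% of protein-coding genes called lower at this site. In each of the 10, both labelled libraries lay below both controls, as they did for 37.7% of all tested genes. The genes together took 0.509% and 0.455% of the counts of the labelled NLS libraries, against 1.17% and 1.15% in the NLS controls.

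At the outer mitochondrial membrane none of the 10 passed the threshold. The median log2 fold change was -0.23, against 0 over the 14438 genes tested there, and the values ran from -0.53 to 0.24. The OMM libraries spread far more within their groups than the NLS libraries did: the biological coefficient of variation was 0.958 at OMM and 0.166 at NLS. In that fit 0.0554% of all genes were called lower and 0.139% higher, so a count of 0 of 10 members is close to the background. At an unadjusted edgeR p under 0.05 there was 1 member of the 10, HSPE1, beside 1524 of the 14438 genes tested, which is close to the same share. DESeq2 called the same 1 member, and at OMM it called many more genes than edgeR did.

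**Figure D1:**
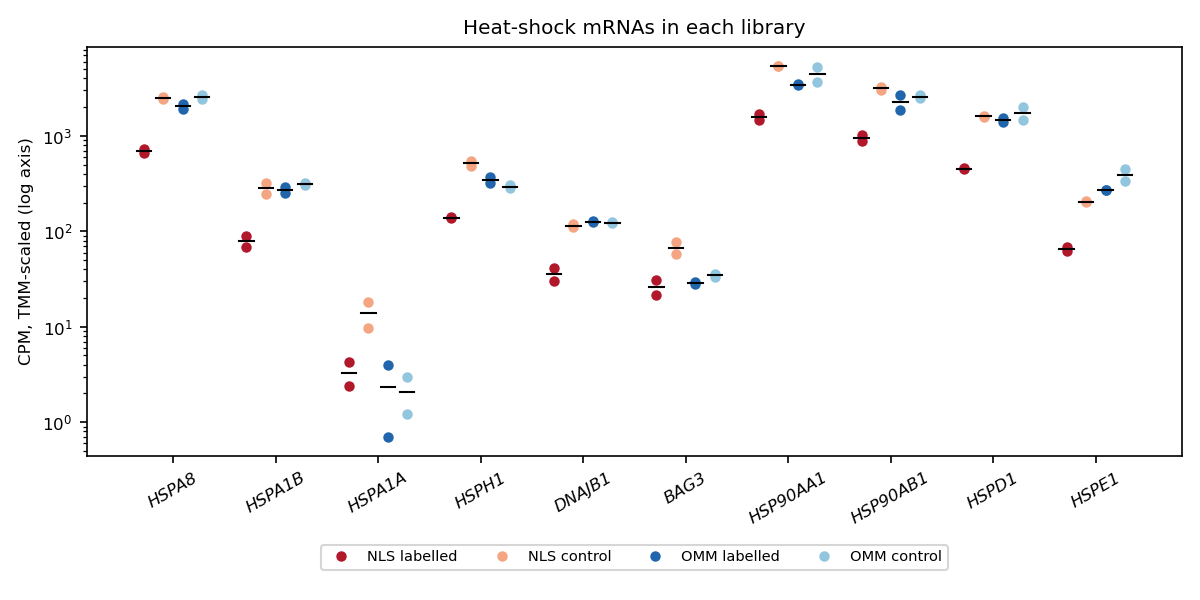
Each point is the level of one heat-shock mRNA in one library, in TMM-scaled CPM on a log axis; the bar is the mean of the 2 libraries of a group, with labelled groups left of their controls. In all 10 genes both labelled NLS libraries lie below both NLS controls. At OMM both labelled libraries lie below both controls in 5 genes and above in 1, and the groups overlap in 4. HSPA1A spreads widely within each OMM group.

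HSP70 and its relatives come first. HSPA8, the constitutive cytosolic HSP70 also known as HSC70, is on chromosome 11 (GENCODE 29, GRCh38, positions 123057489 to 123063230, minus strand). It had 729 and 664 CPM in the labelled NLS libraries, against 2443 and 2561 CPM in the NLS controls. The groups were far apart and each agreed closely within itself, with a log2 fold change of -1.85 ± 0.11 (SE), 3.59-fold lower (edgeR adjusted p = 1.85e-05). At OMM it had 2176 and 1934 CPM in the labelled libraries, against 2423 and 2696 CPM in the controls. Both labelled OMM libraries were the lower ones here too, but by much less, and the log2 fold change of -0.32 ± 0.16 did not pass the test (edgeR adjusted p = 0.544, 95% interval -0.69 to 0.06).

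HSPA1A and HSPA1B are the stress-inducible HSP70 genes, which lie side by side on chromosome 6 and encode the same or nearly the same protein. HSPA1B had 89.9 and 67.7 CPM in the labelled NLS libraries, against 324 and 245 CPM in the NLS controls. The labelled libraries were again well below both controls, with a log2 fold change of -1.85 ± 0.17 (edgeR adjusted p = 7.68e-05). HSPA1B at OMM had 291 and 250 CPM in the labelled libraries and 308 and 323 CPM in the controls, a log2 fold change of -0.22 ± 0.21 (edgeR adjusted p = 0.82).

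The HSPA1A row held few reads: 48 and 23 counts in the labelled NLS libraries, against 321 and 170 in the NLS controls. It fell by 2.07 on the log2 scale (SE 0.41, edgeR adjusted p = 0.00357). When labelled at OMM it had 37 and 145 counts, and OMM controls had 116 and 43, so the groups overlapped, and the 95% interval of the log2 fold change ran from -6.99 to 7.31. Of the 50-base words in the HSPA1A transcripts, 71.3% also occur in HSPA1B, and a read from a shared stretch cannot be placed. Of the reads on the pair, HSPA1A took 4.49% and 3.4% in the labelled NLS libraries, against 5.34% and 3.82% in the NLS controls. Its share was 0.239% and 1.57% in the labelled OMM libraries, against 0.958% and 0.373% in the OMM controls. How the counting treated reads with more than 1 placement is not given in the sources used here, so neither row is a sure level of its own gene. Summing both rows before the fit gave a log2 fold change of -1.86 ± 0.18 at NLS (edgeR adjusted p = 8.64e-05) and -0.22 ± 0.20 at OMM (edgeR adjusted p = 0.821).

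HSPH1, the HSP110 protein that acts as an exchange factor for HSP70, shares no 50-base word with another gene. It had 138 and 141 CPM in the labelled NLS libraries, against 552 and 481 CPM in the NLS controls. Here the labelled libraries nearly coincided, far below the controls, and HSPH1 fell by 1.89 on the log2 scale (SE 0.11, edgeR adjusted p = 1.82e-05). At OMM it had 324 and 373 CPM in the labelled libraries and 307 and 283 CPM in the controls. It was the 1 member with both labelled OMM libraries above both controls, which held for 21.3% of all genes tested there. The log2 fold change of 0.24 ± 0.20 did not pass the test (edgeR adjusted p = 0.785, 95% interval -0.22 to 0.70).

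DNAJB1 is the inducible HSP40, a J-domain partner of cytosolic HSP70. It had 41.2 and 30 CPM in the labelled NLS libraries, against 110 and 118 CPM in the NLS controls, and fell by 1.67 on the log2 scale (SE 0.16, edgeR adjusted p = 7.46e-05). At OMM its values were 124 and 129 CPM in labelled libraries and 122 and 125 CPM in controls. These OMM groups overlapped and lay within a few CPM of each other, with a log2 fold change of 0.04 ± 0.25 and a 95% interval of -0.54 to 0.61.

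BAG3, an HSP70 co-chaperone that links clients to selective autophagy, fell least of the 10. It had 30.9 and 21.3 CPM in the labelled NLS libraries, against 76.4 and 57.2 CPM in the NLS controls, a log2 fold change of -1.35 ± 0.21 (edgeR adjusted p = 0.000983). BAG3 was the member whose place among protein-coding genes was least extreme, since 11.5% of them had a lower log2 fold change at NLS, against 1.48% to 5.43% for the other 9. In the OMM libraries BAG3 had 29.6 and 27.8 CPM when labelled and 36.1 and 33.2 CPM in the controls. The log2 fold change there was -0.27 ± 0.46 (edgeR adjusted p = 0.953).

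The HSP90 pair was among the most read of the family. HSP90AA1, the inducible cytosolic HSP90, had 1689 and 1472 CPM in the labelled NLS libraries, against 5396 and 5460 CPM in the NLS controls. The control libraries were nearly identical and more than 3 times the labelled ones, and HSP90AA1 fell by 1.78 on the log2 scale (SE 0.12, edgeR adjusted p = 2.26e-05). HSP90AB1, the constitutive form, had 1027 and 874 CPM in the labelled NLS libraries, against 3062 and 3247 CPM in the NLS controls, and fell by 1.73 (SE 0.12, edgeR adjusted p = 2.56e-05). The HSP90 genes thus moved by nearly the same amount: the ratio of HSP90AA1 to HSP90AB1 counts was 1.65 and 1.68 in labelled NLS libraries and 1.76 and 1.68 in NLS controls.

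At OMM the HSP90 genes varied more between libraries of the same group. HSP90AA1 had 3382 and 3491 CPM in the labelled OMM libraries and 5285 and 3670 CPM in the OMM controls, with a log2 fold change of -0.38 ± 0.20 (edgeR adjusted p = 0.544). HSP90AB1 had 2670 and 1880 CPM in the labelled OMM libraries and 2655 and 2477 CPM in the OMM controls, with a log2 fold change of -0.17 ± 0.20 (edgeR adjusted p = 0.896). The labelled libraries of HSP90AB1 fell on both sides of the controls, and its log2 fold change lay between -0.44 and 0.06 when each OMM library was left out in turn. The ratio of HSP90AA1 to HSP90AB1 counts was 1.27 and 1.86 in labelled OMM libraries and 1.99 and 1.48 in OMM controls.

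HSPD1 (HSP60) and HSPE1 (HSP10) form the chaperonin of the mitochondrial matrix and are the members whose proteins must be imported. They lie on opposite strands of chromosome 2, HSPD1 on the minus strand (positions 197486581 to 197516737) and HSPE1 on the plus strand (positions 197499994 to 197503457), so that HSPE1 falls within the annotated span of HSPD1 and their annotated exons overlap. HSPD1 had 457 and 454 CPM in the labelled NLS libraries, against 1624 and 1574 CPM in the NLS controls. The replicates agree within a few percent, and HSPD1 fell by 1.81 on the log2 scale (SE 0.10, edgeR adjusted p = 1.82e-05). HSPE1 had 67.9 and 62.5 CPM in the labelled NLS libraries, against 202 and 207 CPM in the NLS controls, and fell by 1.65 (SE 0.10, edgeR adjusted p = 1.86e-05).

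At OMM, where the labelling enzyme faces the cytosol on the membrane that the chaperonin subunits cross, neither mRNA was called higher or lower. HSPD1 had 1535 and 1389 CPM in the labelled OMM libraries and 1996 and 1476 CPM in the OMM controls, with a log2 fold change of -0.25 ± 0.20 (edgeR adjusted p = 0.754). HSPE1 had 269 and 274 CPM in the labelled OMM libraries, against 446 and 337 CPM in the OMM controls. Both labelled libraries of HSPE1 lay below both controls, and its log2 fold change of -0.53 ± 0.22 had an interval just short of 0 (-1.03 to -0.03) with an edgeR adjusted p of 0.443. DESeq2 gave -0.52 with an adjusted p of 0.0399, and the authors' deposited table lists -0.52 with p = 0.0393, so this call depends on the tool. The ratio of HSPD1 to HSPE1 counts was 6.73 and 7.27 in labelled NLS libraries and 8.05 and 7.6 in NLS controls. It was 5.71 and 5.07 in labelled OMM libraries, against 4.48 and 4.39 in OMM controls.

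The read-through gene HSPE1-MOB4 shares exons with HSPE1 and moved with it. It had 70.2 and 62.2 CPM in the labelled NLS libraries, against 217 and 226 CPM in the NLS controls, with a log2 fold change of -1.74 ± 0.10. Its counts were 0.814 to 1.09 times those of HSPE1 over the 8 libraries. Reads on the shared exons could have gone to either row, so HSPE1 and HSPE1-MOB4 are not separate measurements. MOB4, the gene at its other end, had a log2 fold change of -1.59 ± 0.13 at NLS and -0.20 ± 0.47 at OMM.

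Over the OMM comparison as a whole, both labelled libraries lay below both controls for 5 members (HSPA8, HSPA1B, BAG3, HSP90AA1 and HSPE1), against 22.5% of all genes tested. HSPH1 alone lay above, and the groups overlapped for HSPA1A, DNAJB1, HSP90AB1 and HSPD1. In the authors' deposited table all 10 members have a p under 0.05 at NLS, with log2 fold changes from -2.04 to -1.31. At OMM that table gives 1 (HSPE1) a p under 0.05, with log2 fold changes from -0.52 to 0.25.

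**Figure D2:**
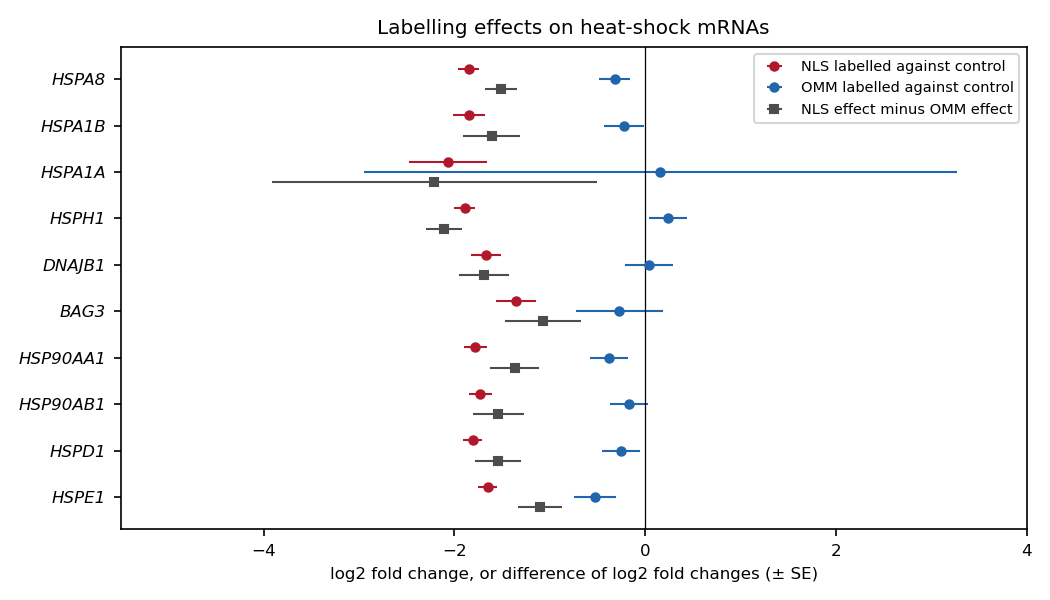
Points are edgeR log2 fold changes of labelled over control at NLS (red) and at OMM (blue), and squares are the NLS effect minus the OMM effect from a joint fit of 8 libraries; bars are SE. At NLS the 10 genes lie between -2.07 and -1.35, while at OMM they lie on both sides of 0 and HSPA1A, with the fewest reads, has by far the widest bars.

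**Figure D3:**
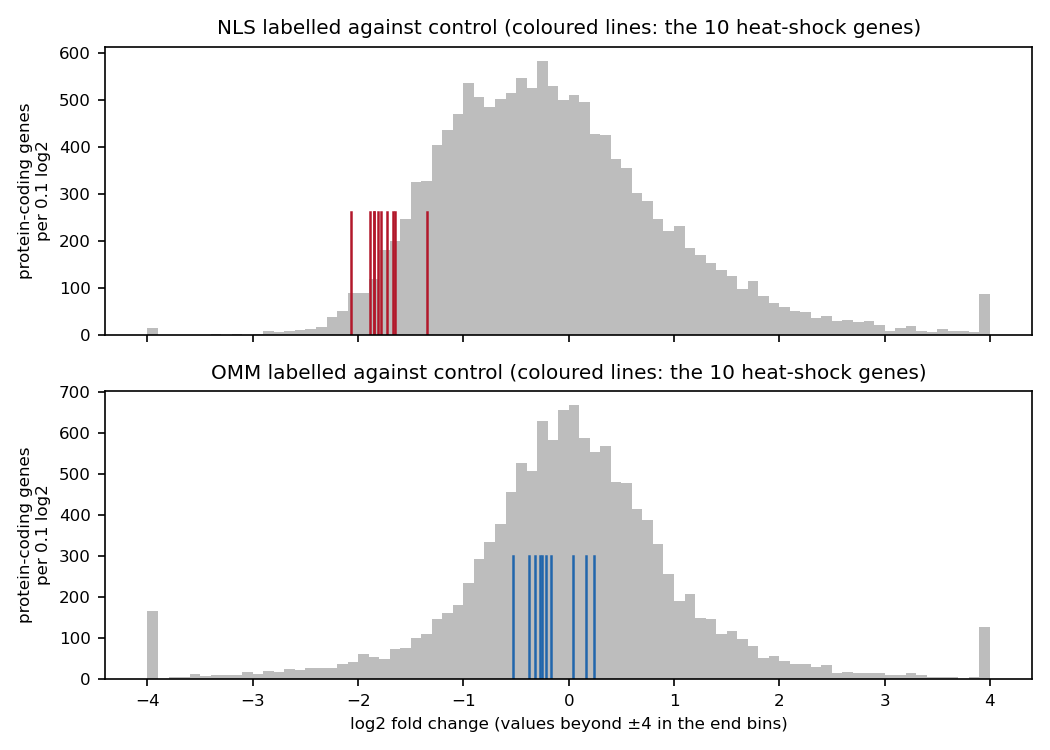
Grey bars count protein-coding genes by log2 fold change at NLS (top) and OMM (bottom), in steps of 0.1 with values beyond 4 in the end bars, and coloured lines mark the 10 heat-shock genes. The NLS lines sit in the low tail, where at most 11.5% of protein-coding genes are lower, and the OMM lines sit in the middle of the distribution, with 24.7% to 60.8% of protein-coding genes lower.

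The difference between sites was tested itself, as the NLS effect minus the OMM effect. It was negative for all 10 members, with a median of -1.54 against 0.15 over the 23178 genes tested, and 8 of the 10 passed the threshold, beside a background of 6.23% of all genes and 9.73% of protein-coding genes called in that direction. HSPH1 differed most among those called, by -2.11 ± 0.19 (edgeR adjusted p = 0.00488), followed by DNAJB1 at -1.69 ± 0.26 (edgeR adjusted p = 0.0153) and HSPA1B at -1.61 ± 0.30 (edgeR adjusted p = 0.0273). HSPE1 differed least among them, by -1.10 ± 0.23 (edgeR adjusted p = 0.0401). The members not called were BAG3, at -1.07 ± 0.40 (edgeR adjusted p = 0.183), and HSPA1A, at -2.21 ± 1.70 (edgeR adjusted p = 0.561). These calls rest on few libraries: 0 members were called without NLS control 1 or without NLS control 3, 2 without labelled NLS library 3, 5 without labelled NLS library 1 and 6 without labelled OMM library 2. They also rest on the scaling, since 4 were called with relative log expression factors and 3 with library size alone, although the sign stayed negative for each of the 10 in every fit. The joint fit gave each gene 1 dispersion for both sites, though their spread was very unlike. For HSPH1, BAG3 and HSPA1A, but not the other members, the SE of the difference lies below that of the OMM effect alone (0.20, 0.46 and 3.11). SEs and p-values of the difference may therefore be too small.

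Levels per kilobase of exon put the family in nearly the same order in each of the 4 groups. The length used is the union of exons over all annotated transcripts, which covers 4849 of the 5742 bases of HSPA8 but 2980 of the 7723 of HSP90AB1. The order between genes therefore depends on the annotation and may differ with the length of the main mRNA. HSP90AB1 and HSP90AA1 led with overlapping library values, at 319 ± 36.3 and 301 ± 29.3 CPM per kb in labelled NLS libraries and 1058 ± 43.8 and 1034 ± 8.63 in NLS controls (SD, n = 2 each). HSPA8 came next, at 144 ± 9.51 CPM per kb in labelled NLS libraries and 516 ± 17.2 in NLS controls, and then HSPD1, at 107 ± 0.402 and 377 ± 8.45 CPM per kb in the same groups. HSPE1 and HSPA1B followed and overlapped each other at NLS, with HSPE1 at 33 ± 1.92 CPM per kb in labelled libraries and 103 ± 1.87 in controls and HSPA1B at 31.3 ± 6.23 and 113 ± 22.1. At OMM these neighbours did not overlap, with HSPE1 at 137 ± 1.82 CPM per kb in labelled libraries and 198 ± 39 in controls and HSPA1B at 107 ± 11.7 and 125 ± 4.4. HSPH1, DNAJB1, BAG3 and the HSPA1A row closed the order in all 4 groups. DNAJB1 overlapped BAG3 in the labelled NLS libraries, and HSPH1 overlapped DNAJB1 in the OMM controls. Each of the other neighbours in the order was apart in its library values.

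Ratios within the family compare members inside the same library. HSPH1 counts were 0.189 and 0.212 times those of HSPA8 in the labelled NLS libraries and 0.226 and 0.188 times in the NLS controls, so the groups overlapped. In the OMM libraries the ratio was 0.149 and 0.193 when labelled, against 0.127 and 0.105 in the controls, with no overlap. BAG3 counts were 0.0424 and 0.0321 times those of HSPA8 in labelled NLS libraries, against 0.0313 and 0.0223 in NLS controls. At OMM the BAG3 ratio overlapped, at 0.0136 and 0.0144 when labelled and 0.0149 and 0.0123 in controls. DNAJB1 counts were 0.0571 and 0.0665 times those of HSPA8 in labelled OMM libraries, against 0.0503 and 0.0462 in OMM controls. At NLS the DNAJB1 ratio overlapped, at 0.0566 and 0.0452 when labelled and 0.0449 and 0.0459 in controls. With 2 libraries a group, an exact permutation test of a single ratio could not reach a p of 0.05, and none is given.

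Small RNAs encoded inside HSPA8 did not fall with its mRNA: of 3, 2 rose at NLS, where 28.8% of all tested genes were called higher. SNORD14C, SNORD14D and SNORD14E are C/D box snoRNAs, which guide methylation of ribosomal RNA in the nucleolus and are trimmed out of introns of the host transcript. They are shown as the GENCODE 29 transcript sequence, 5′ to 3′ on the minus strand (GRCh38), with the C box (TGATGA) and, where the letters CTGA were found near the end, the D box in capitals:
SNORD14C (chr11:123059335-123059422): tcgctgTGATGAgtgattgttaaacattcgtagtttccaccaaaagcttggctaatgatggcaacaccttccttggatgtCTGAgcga
SNORD14D (chr11:123058909-123058995): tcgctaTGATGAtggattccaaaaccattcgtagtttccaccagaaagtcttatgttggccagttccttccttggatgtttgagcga
SNORD14E (chr11:123058077-123058161): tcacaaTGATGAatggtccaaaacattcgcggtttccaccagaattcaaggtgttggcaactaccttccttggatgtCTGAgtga
SNORD14E overlaps an exon of 0 of the 24 annotated HSPA8 transcripts, and SNORD14C and SNORD14D overlap an exon of 2 each.

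SNORD14E had 68 and 77 counts in the labelled NLS libraries, against 27 and 32 in the more deeply sequenced NLS controls. On the CPM scale this was 5.99 and 7.97 when labelled and 1.54 and 1.84 in the controls, and SNORD14E rose by 2.04 on the log2 scale (SE 0.41, edgeR adjusted p = 0.00377). SNORD14D rose as well, with 7.4 and 8.08 CPM when labelled against 2.73 and 1.66 CPM in the controls (log2 fold change 1.81 ± 0.40, edgeR adjusted p = 0.00589). SNORD14C had 7.4 and 5.59 CPM when labelled and 5.87 and 3.73 CPM in the controls, which overlap, and did not pass the test (log2 fold change 0.44 ± 0.37, edgeR adjusted p = 0.341). Both calls ended without labelled NLS library 3 (log2 fold changes 1.78 for SNORD14D and 1.86 for SNORD14E, edgeR adjusted p = 0.0778 and 0.103), while SNORD14C was called without NLS control 1 (0.80, edgeR adjusted p = 0.0156). The counts of SNORD14E were 0.00822 and 0.012 times those of HSPA8 in the labelled NLS libraries, against 0.00063 and 0.000717 times in the NLS controls. At OMM all 3 had 0 counts in both labelled libraries, which allows up to 0.0566 and 0.0826 CPM. In the OMM controls SNORD14C had 159 and 0, SNORD14D 0 and 118, and SNORD14E 5 and 0, so no OMM test was made. Whether these reads come from the snoRNAs or from unspliced HSPA8 RNA around them was not tested.

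Pseudogene rows of the family are given as a description. Of 72 pseudogene rows, 20 had at least 10 counts in at least 2 libraries. Among those, 9 rose at NLS, 4 fell, 5 did not pass the test and 2 were not tested, where 28.8% of all tested genes were called higher and 28.5% lower. Of the 9 that rose, 6 had reached 10 counts in the labelled NLS libraries alone, and 1 of the 4 that fell had done so in the NLS controls alone, so these rows had to differ and the counts support nothing. All 9 that rose lie inside another gene on the same strand, outside its annotated exons, share 0% to 5.94% of their 50-base words with a heat-shock gene, and had 0 counts in all 4 OMM libraries. HSPA8P15, inside RMND1, had 73 and 59 counts in the labelled NLS libraries, against 8 and 6 in the NLS controls. It is 1 of the 6 that reached 10 counts in the labelled NLS libraries alone. HSPA8P3, inside PDSS1, had 128 and 125 counts when labelled, against 22 and 46 in the controls. HSPD1P11, inside RHOBTB3, had 49 and 41 counts when labelled and 10 and 12 in the controls, and HSP90AB4P, inside ADAM10, had 59 and 39 when labelled and 25 and 30 in the controls. For 4 of the 9 (HSPA8P14, HSPE1P11, HSPE1P13 and HSPE1P28) both NLS controls were at 0, against 12 to 47 counts in the labelled libraries. The surrounding genes themselves went both ways at NLS: of the 8 that could be tested, 2 rose and 4 fell. With either labelled NLS library left out, fewer of the 9 were called. The log2 fold change stayed positive for each one tested, which says nothing for those that entered through the labelled libraries alone, HSPD1P11 included.

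The 4 pseudogene rows that fell lie inside no other gene of the same strand and share 7.46% to 24.1% of their words with a heat-shock gene. The 5 rows not called share 0% to 31.2%, so word sharing did not follow direction throughout: HSPE1P3 (31.2%) had a log2 fold change of 0.85 ± 0.93 and HSPD1P4 (14.9%) of 0.89 ± 0.38. HSP90AA2P had 39 and 25 counts in the labelled NLS libraries, against 146 and 141 in the NLS controls (log2 fold change -1.44 ± 0.34), close to HSP90AA1 itself. HSP90AB3P had 16 and 21 counts when labelled and 114 and 147 in the controls (-2.06 ± 0.41), and HSPD1P1 had 12 and 6 when labelled and 50 and 61 in the controls (-1.90 ± 0.60). HSP90AA6P was the last of them, at 1 and 2 counts when labelled and 15 and 24 in the controls. Of these 4 rows, 3 were called with relative log expression factors, 2 with library size alone, 0 without labelled NLS library 1 and 1 without labelled NLS library 3, all still negative. Reads of the parent mRNAs that were placed on these copies cannot be told apart from reads of the copies. Among the members themselves, HSPH1 and BAG3 share no such word with another gene, HSPA8 8.23%, HSP90AA1 14%, HSP90AB1 16.6%, HSPD1 18.4% and HSPE1 22.7%.

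**Figure D4:**
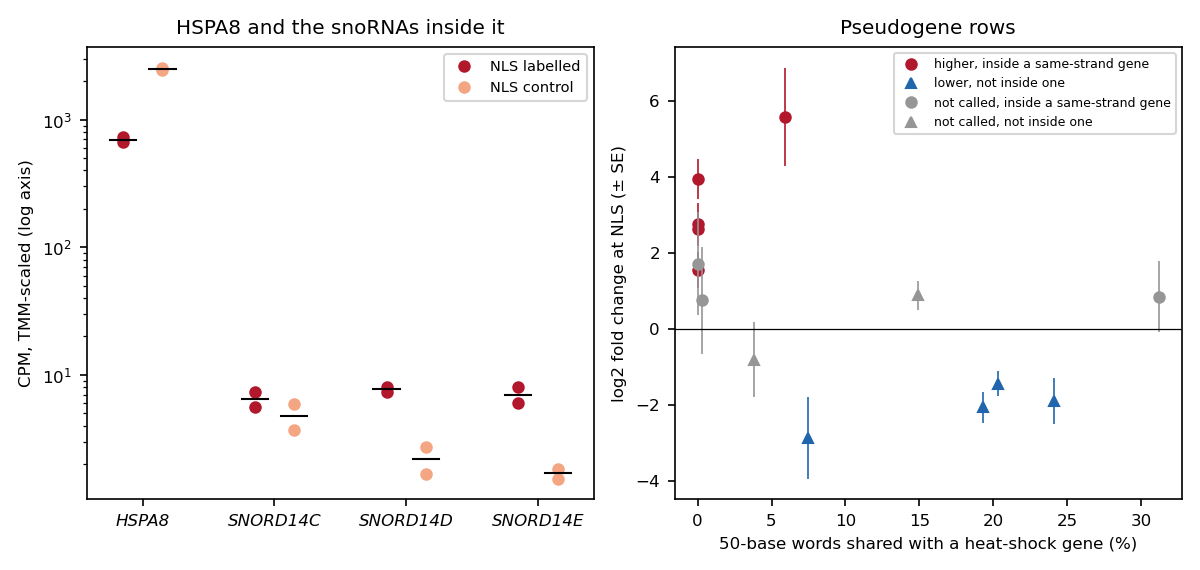
Left: CPM (log axis) of HSPA8 and of 3 snoRNAs annotated inside it, one point per NLS library, with labelled left of control and a bar at the mean. Right: edgeR log2 fold change at NLS (± SE) of pseudogene rows against the share of their 50-base words found in a heat-shock gene, without the 4 rows whose controls are both at 0; circles lie inside another gene on the same strand, and the rows that fell (blue triangles) share 7.46% to 24.1%, the grey ones not called 0% to 31.2%.

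The wider chaperone network, a list of 46 further genes, also had mostly lower levels at NLS. Of 42 tested, 34 fell and 0 rose, with a median log2 fold change of -0.93, beside the background of 28.5% of all genes and 39.8% of protein-coding genes called lower and a protein-coding median of -0.26. The 34 include HSPA1L, which passed the filter through the NLS controls alone. With library size alone, which moved the median of all genes to 0.65, 22 were lower and 2 (DNAJA3 and DNAJB6) higher, with a list median of -0.42. The 10 members stayed lower under that scaling too, at a median of -1.28. Of the HSP90 co-chaperones 9 of 9 were lower with TMM scaling, with a median of -1.38, and 6 of 9 with library size alone, where CDC37 (-0.15), CHORDC1 (0.08) and UNC45A (-0.07) were not called. PTGES3 (p23), which stabilises client-bound HSP90, had 203 and 230 CPM in labelled libraries and 782 and 764 CPM in controls (log2 fold change -1.84 ± 0.11). STIP1 (HOP), the adaptor between HSP70 and HSP90, had 184 and 155 CPM when labelled and 472 and 530 CPM in controls (-1.56 ± 0.12).

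Among HSP70 and HSP110 relatives 4 of 5 tested fell. The lowest was HSPA1L, a weakly read gene beside HSPA1A, at 0.352 and 0.207 CPM when labelled and 1.71 and 1.55 CPM in controls (log2 fold change -2.49 ± 0.87). HSPA1L had 4 and 2 counts when labelled and 30 and 27 in the controls, so it passed the filter through the controls alone. It thus had to differ, and its call supports nothing. The HSPA1L call ended with library size alone (edgeR adjusted p = 0.081) and without either labelled NLS library (edgeR adjusted p = 0.294 without library 1 and 0.406 without library 3). Of the exchange and BAG factors 5 of 6 fell, with BAG1, an exchange factor of HSP70, among the smallest changes at -0.36 ± 0.13 (0.16 and not called with library size alone, -0.31 and not called with relative log expression factors, and not called without NLS labelled library 1, labelled library 3 or control 3, at -0.35, -0.28 and -0.25). Both small heat-shock genes tested fell (HSPB11 was not called with library size alone, at -0.28), HSPB1 (HSP27) by 2.04 on the log2 scale (SE 0.20) with 11.4 and 9.11 CPM when labelled and 37.6 and 47.1 CPM in controls. SERPINH1, the collagen chaperone of the endoplasmic reticulum, had a log2 fold change of -1.72 ± 0.14.

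Of the J-domain genes 3 of 7 were called lower, with a median of -0.38, close to the background of 39.8% and -0.26 for protein-coding genes, beside DNAJB1 at -1.67. DNAJC7 fell by 0.43 (SE 0.10), with 151 and 177 CPM when labelled and 221 and 220 CPM in controls, but it was at 0.09 with library size alone and was not called without labelled NLS library 1 (-0.27). Of the genes for mitochondrial chaperones and proteases 7 of 9 fell, with a median of -0.82, and 4 of 9 with library size alone, where DNAJA3 was called higher. HSPA9, the matrix HSP70 (mortalin), had 332 and 329 CPM when labelled and 871 and 889 CPM in controls (-1.41 ± 0.09), and LONP1, a matrix protease, had 97.9 and 90.6 CPM when labelled and 118 and 117 CPM in controls (-0.32 ± 0.10). LONP1 was at 0.20 and not called with library size alone, and not called without labelled NLS library 1 (-0.33) or 3 (-0.22).

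The 3 regulators on the list were all called lower with TMM scaling, but with library size alone only HSBP1 was. HSF1 itself had 55 and 57.5 CPM in the labelled NLS libraries and 65.9 and 85.6 CPM in the NLS controls, a log2 fold change of -0.43 ± 0.14 (edgeR adjusted p = 0.0343). That HSF1 call did not hold with library size alone (0.09), without labelled NLS library 1 (-0.35) or 3 (-0.42), or without NLS control 3 (-0.23). HSF2, a related factor, was at -0.57 ± 0.13, and was not called with library size alone (-0.05) or without labelled NLS library 1 (-0.42). HSBP1, a small protein that binds HSF1, fell further, by 1.76 (SE 0.11). At OMM 0 of the 42 list genes tested passed the edgeR threshold. An unadjusted edgeR p under 0.05 was found for 5 of the 42, near the share over all genes tested there (1524 of 14438). The list median log2 fold change at OMM was -0.20. It stayed at -0.20 with HSPB8, listed at 0 in both labelled OMM libraries, set to a bound of 3 counts per library. HSF1 had 55.1 and 28.2 CPM in the labelled OMM libraries and 53.1 and 37.7 CPM in the OMM controls. STIP1 had a log2 fold change of -0.08 ± 0.20 and HSPA9 of -0.35 ± 0.20 at OMM. In the test of the difference between sites 11 of 44 list genes were called lower and 0 higher, against 5 lower with relative log expression factors and 4 with library size alone. The background in that test was 6.23% of all genes and 9.73% of protein-coding genes with TMM scaling.

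**Figure D5:**
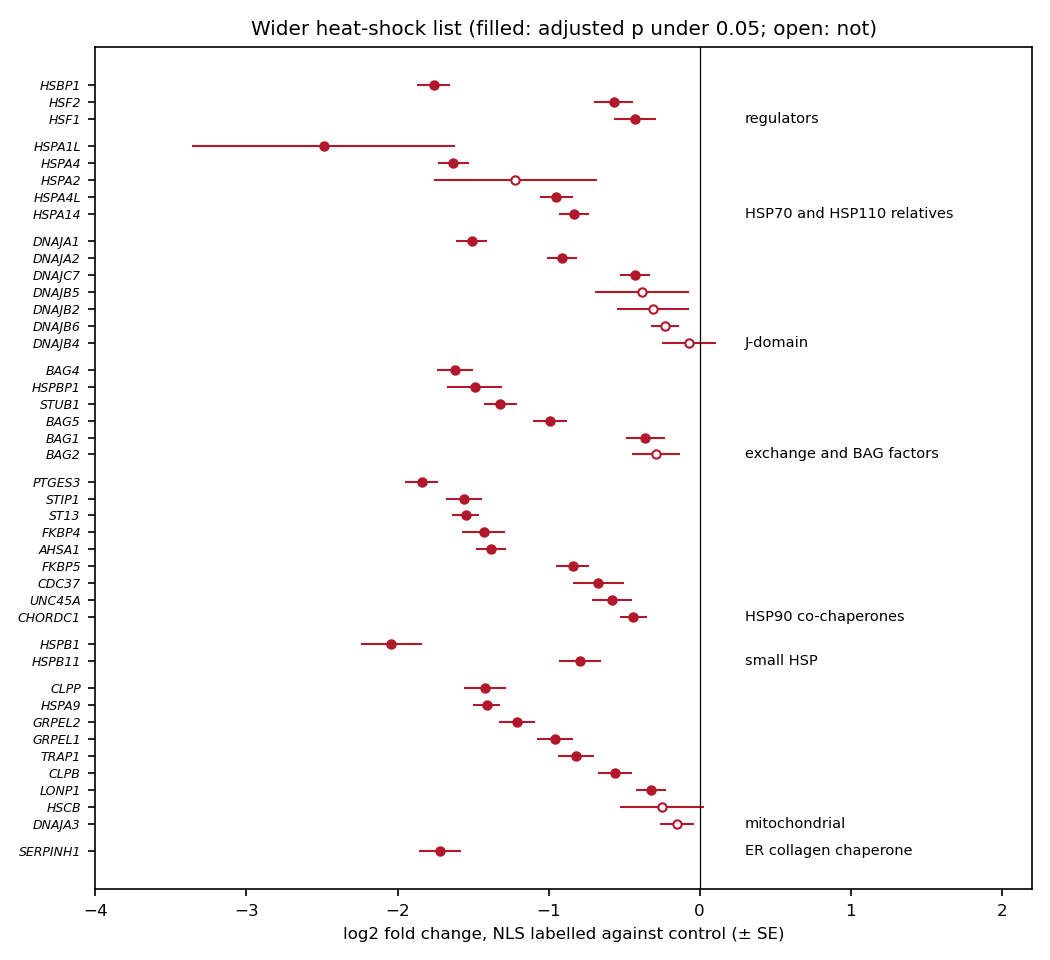
edgeR log2 fold change (± SE) at NLS of the 42 tested genes of the wider list, by role, with filled points for an adjusted p under 0.05 and open points for the rest. With TMM scaling all 42 lie below 0, from -2.49 to -0.07 (12 lie above 0 with library size alone), and the J-domain genes include 4 of the 8 open points.

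Other genes moved over the 8 libraries much as the heat-shock family did. Among 11196 genes with at least 10 counts in every library, the 5 whose centred log2 CPM lay closest to the mean profile of the 10 members were DLD, EPRS1, YBX1, TOP2A and TOMM34, with a root-mean-square difference of 0.133 to 0.14. DLD, a subunit of the matrix 2-oxo acid dehydrogenase complexes, had log2 fold changes of -1.64 ± 0.11 at NLS and -0.14 ± 0.28 at OMM. EPRS1, YBX1 and TOP2A had -1.81 ± 0.11, -1.91 ± 0.15 and -1.57 ± 0.09 at NLS. At OMM they had -0.01 ± 0.23, -0.40 ± 0.17 and -0.21 ± 0.21. TOMM34, a cytosolic protein that binds HSP70 and HSP90, had -1.62 ± 0.12 at NLS and -0.16 ± 0.33 at OMM. Among the members HSP90AA1 lay nearest to the shared profile, at 0.103, and HSPA1A farthest, at 1.33, with HSPE1 next at 0.563.

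The libraries held 8039176 to 21096586 counts at NLS and 34705126 to 52421161 at OMM, so 3 counts correspond to 0.171 to 0.311 CPM at NLS and 0.0566 to 0.0845 at OMM, for counting error only. The labelled NLS libraries were the shallowest. As a check of the site, the nuclear RNAs NEAT1 and MALAT1 rose at NLS by 3.86 and 2.31 on the log2 scale, while GAPDH had a log2 fold change of -2.16. Mitochondrially encoded RNA took 0.85% and 0.812% of counts in the labelled NLS libraries, against 4.49% and 3.19% in the NLS controls, and its part in the results was not tested. At OMM its share was 1.17% and 1.65% with labelling and 7.19% and 4.29% without. Of 6 HEK293T markers, VIM, KRT8, KRT18, NEFM and INA had reads in every library and PAX2 had 0 counts in 2 OMM libraries, while 6 markers of leukocytes, liver, endothelium and muscle reached at most 1.99 CPM in a library.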

How the data were processed

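The authors deposited counts per gene, made with STAR and HTSeq per the submitters' processing notes, which further list hg38 and GRCh38.p13 as builds and Trimmomatic, SAMtools, bedtools and DESeq2 as tools. The sources used here give no versions, no strand setting and no treatment of reads with several placements. Their table of comparisons, also deposited, gives log2 fold changes and a p-value per gene, credited to the authors where printed. The release of RNA from the beads is given differently in the series text and the sample labels and is not settled. The tables held 4 count columns and 2 comparison columns that matched no sample and were not used.

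The test was the robust quasi-likelihood F test of edgeR 4.0.16 (R 4.3.3), two-sided, TMM factors, filterByExpr with minimum count 10, prior count 0.125, and Benjamini-Hochberg adjustment over all tested genes with a threshold of 0.05. NLS and OMM libraries were fitted apart, and the difference between sites was the interaction term of a fit of all 8. SE is the size of the log2 fold change over the square root of F. CPM uses the same TMM factors, and CPM per kb the GENCODE 29 union exon length (GRCh38). Of 60664 identifiers, 58396 were found there, with all 10 members. Replicate libraries differed beyond sampling noise in each group (chi-square per degree of freedom 3.34 to 203) and each counted as 1. The fits were also run on simulated data, which spread less between replicates than the OMM libraries and, for the difference, equally at both sites. That run therefore does not vouch for the OMM fit or the difference. DESeq2 1.42.0, other scalings, no filter, no robust prior, libraries left out in turn and a replicate block were the alternatives.

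The members and lists were chosen with earlier results of these data known. Named genes are the 10 members; from the wider list the 4 highest and 4 lowest log2 fold changes called in a compartment, with HSF1, HSPA9 and STIP1 always; copies and neighbours with at least 10 counts in at least 2 libraries; the 5 genes of most like profile; and the site checks. SERPINH1, the only gene of its role, and list genes named for losing or gaining a call or for a group at 0 (HSF2, HSPB8, HSPB11, CDC37, CHORDC1, UNC45A, DNAJA3 and DNAJB6) were chosen after their values were seen. Promoter windows are from RefSeq, and sequence words of 50 bases were compared over GENCODE 29 transcripts.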

Additional observations from a re-analysis of the deposited data

Results flagged for a closer look

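The effect of labelling was called different between NLS and OMM for 8 of the 10 heat-shock mRNAs by the interaction term itself (edgeR quasi-likelihood test, adjusted over all genes). Beside this, 6.23% of all tested genes and 9.73% of protein-coding genes were called in that direction. Fewer members were called with relative log expression factors, with library size alone and when certain single libraries were left out, as given above. As the NLS effect minus the OMM effect on the log2 scale, the values of the 8 were -1.51 for HSPA8, -1.61 for HSPA1B, -2.11 for HSPH1, -1.69 for DNAJB1, -1.37 for HSP90AA1, -1.54 for HSP90AB1, -1.54 for HSPD1 and -1.10 for HSPE1. Their adjusted p-values ran from 0.00488 for HSPH1 to 0.0401 for HSPE1. Site and library kit cannot be told apart in this design. The joint fit gave each gene a single dispersion for both sites, whose spread was very unlike, so these p-values may be too small.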

How the results depend on the processing

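All 10 members were called lower at NLS under every alternative run there. The replicate number was also used as a block, which rests on a shared number only. Over 20858 genes the deviations of same-numbered NLS libraries (2 pairs) had a correlation of -0.043. With that block 10 members and 5083 higher and 5698 lower genes were called. The OMM arms share 1 number, so no block could be fitted there. With library size alone, NLS had 9115 genes higher and 3363 lower, and the median over all genes moved to 0.65 with members at -1.28. OMM counts of genes higher and lower were 48 and 16 with library size alone, 321 and 145 with no filter, 1 and 0 without the robust prior, and 994 and 869 with DESeq2, which called 1 member lower. For the difference between sites, 626 genes and 4 members were lower with relative log expression factors, 585 and 3 with library size alone, 676 were higher with no filter and 2279 with DESeq2. HSPA1A and HSPA1B summed gave a difference of -1.21 (adjusted p = 0.0799) with library size alone, and the HSPA1A row alone gave 0.16 at OMM and -2.21 (adjusted p = 0.561) for the difference. The cause of these shifts was not tested.

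With libraries left out in turn (a lone library is assumed to vary like the other groups), NLS had 3077 to 8425 genes higher, 4520 to 6953 lower and 10 members lower. OMM had 128 to 335 higher, 76 to 279 lower and 0 members. The difference between sites had 0 to 1454 higher, 0 to 2749 lower and 0 to 8 members lower, and the summed pair ran from -1.87 to -1.40 (adjusted p 0.0266 to 0.147). The sign at OMM changed for HSPA1A (-1.57 to 0.94) and HSP90AB1 (-0.44 to 0.06). For the wider list, snoRNAs and pseudogenes, scaling and left-out libraries were tried after seeing the data: 28 to 36 list genes were called lower with a library left out. The labelled NLS libraries had few counts of the snoRNAs and pseudogenes, which limits those calls.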
